A study of Mus musculus with 12 samples.

Results

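RNA of 4T1 cells carrying Cebpd sgRNA1 was compared with RNA of 4T1 cells carrying a control guide, all after exposure to interferon gamma (IFN-gamma). The libraries were chosen by their titles, which name sgRNA1 or the Rosa26 guide together with IFN-gamma. They are 4 of the 12 libraries of the series, 2 per group, and the comparison covers all 16283 genes of the count table, of which 13601 had enough counts to be tested. 4T1, from which every library of the series was made, is an established line from a mammary tumour of the BALB/c strain. The sgRNA1 cells are labelled as a Cebpd knockout. The control cells carry a guide to Rosa26, a safe-harbour locus. Both received 20 ng/ml of IFN-gamma for 24 hours. The matching vehicle libraries (2 per group) and the IFN-gamma libraries of the other Cebpd guide, sgRNA2 (2 libraries, also labelled as knockout), are used for further comparisons. The sgRNA2 vehicle libraries are used to sort genes by their response to IFN-gamma. All 12 libraries were fitted together, so each also enters the filter, the scaling and the estimate of the spread behind every SE and adjusted p. The labels do not say whether a guide was studied as a pool or as a clone, how the guides were delivered, or whether replicate libraries stem from separate cultures. The p-values therefore measure the spread between these libraries, which may be technical, and a guide cannot be told apart from its cell line.

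Cebpd encodes C/EBP delta, a basic leucine zipper transcription factor that binds DNA as a dimer with other C/EBP proteins and is known for driving acute phase and inflammatory genes. IFN-gamma binds the receptor chains Ifngr1 and Ifngr2, which signal through the kinases JAK1 and JAK2 to transcription factors. One factor induced in this way, IRF1, helps to switch on guanylate-binding proteins, chemokines and the genes of antigen presentation. In carcinoma cells the same signal can also slow growth.

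Total counts were 21485951 and 20165003 in the control libraries and 19696592 and 18435431 in the sgRNA1 libraries. Levels are given as CPM, counts relative to a fixed total of counts after scaling of library sizes, for replicates 1 and 2 of a group in that order, and differences as log2 fold changes of sgRNA1 over control ± SE. The threshold for calling a gene was an adjusted p of 0.05 in edgeR's quasi-likelihood test. By that rule 8825 of the 13601 genes differed, which is 64.9% of those tested, with 4302 higher (31.6%) and 4523 lower (33.3%) in sgRNA1 cells. At least 2-fold differences were called for 1192 genes upward (8.76%) and 771 downward (5.67%), and the median over all tested genes was -0.0016. A call alone therefore separates a gene little from the rest, and the counts below are to be read against these shares. With only 2 libraries per group, a lack of overlap between groups also separates a gene little. All 9 markers of mammary epithelium were measured in all 4 libraries and summed to 4127 and 4038 CPM in control and 3165 and 3144 CPM in sgRNA1 libraries. Endothelial markers summed to at most 0.398 CPM. Of 8 lymphocyte and 4 erythroid markers looked up, 0 had a row in the count table used here, so they have no level. Of 10 leukocyte markers, Cd68, Csf1r and Cd14 were tested, and Ptprc, the defining one, was not. The list summed to between 40.4 and 44.8 CPM, but all 3 tested genes were called. Cd68 fell (-1.55), while Csf1r and Cd14 rose (1.55 and 1.62). Of 7 fibroblast markers, Col1a1 and Pdgfra were tested, with differences of 1.83 and 0.17, and 1 of these was called. The fibroblast list summed to 24.7 and 25.1 CPM in control and 30.7 and 27.4 CPM in sgRNA1 libraries. In RNA of whole cultures, fewer cells expressing a gene and less RNA per cell cannot be told apart.

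Among the 12 largest rises, the promoters of Ptx3, Il6, Saa3 and Bcl2l15 hold the letters TTGCNNAA, the pattern of the C/EBP site with its central bases left free, and among the 12 largest falls 1 promoter of Asb2 does. They are shown because they hold these letters, among the genes with the largest measured differences. Promoters of those genes without the letters, a further Asb2 promoter included, are not shown. Each line gives the 250 bases before the RefSeq start on the gene's strand, 5′ to 3′ (build GRCm38.p6), with the match on either strand in capitals.
Ptx3 (chr3:66219637-66219886, plus strand): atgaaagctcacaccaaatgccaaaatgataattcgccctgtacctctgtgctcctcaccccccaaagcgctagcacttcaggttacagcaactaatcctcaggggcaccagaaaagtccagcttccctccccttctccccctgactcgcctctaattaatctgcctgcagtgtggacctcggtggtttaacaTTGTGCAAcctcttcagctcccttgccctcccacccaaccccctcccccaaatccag
Il6 (chr5:30012864-30013113, plus strand): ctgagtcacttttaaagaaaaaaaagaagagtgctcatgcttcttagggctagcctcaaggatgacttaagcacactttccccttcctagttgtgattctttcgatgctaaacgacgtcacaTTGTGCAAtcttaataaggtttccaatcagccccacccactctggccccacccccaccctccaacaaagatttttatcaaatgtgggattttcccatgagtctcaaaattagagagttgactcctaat
Saa3 (chr7:46715677-46715926, minus strand): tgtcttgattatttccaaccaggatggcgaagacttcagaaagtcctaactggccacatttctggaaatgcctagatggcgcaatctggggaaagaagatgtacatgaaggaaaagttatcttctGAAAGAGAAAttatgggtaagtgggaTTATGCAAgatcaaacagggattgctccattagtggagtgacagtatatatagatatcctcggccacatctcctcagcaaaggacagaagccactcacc
Bcl2l15 (chr3:103832446-103832695, plus strand): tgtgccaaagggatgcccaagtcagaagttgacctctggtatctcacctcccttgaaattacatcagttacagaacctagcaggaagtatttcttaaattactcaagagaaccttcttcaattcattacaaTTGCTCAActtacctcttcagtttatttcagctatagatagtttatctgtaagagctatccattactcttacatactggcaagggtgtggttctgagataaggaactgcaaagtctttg
Asb2 (chr12:103356002-103356251, minus strand): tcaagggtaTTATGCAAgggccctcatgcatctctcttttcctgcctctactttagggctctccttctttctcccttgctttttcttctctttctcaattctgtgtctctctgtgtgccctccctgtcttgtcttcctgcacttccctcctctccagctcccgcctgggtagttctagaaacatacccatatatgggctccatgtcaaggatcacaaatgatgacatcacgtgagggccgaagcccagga
In the Saa3 line a further run in capitals, GAAAGAGAAA, is a match to the interferon-stimulated response element pattern (TTTC, any 2 bases, then TTTC, on either strand). Of the 12 largest rises, 11 had a RefSeq promoter, and 4 of those 11 (36.4%) held TTGCNNAA on either strand. Of the 8 promoters of 7 of the 12 largest falls, 1 held it (12.5%). The letters occur in 9.56% of all 32851 promoter windows of the same length, that is in 3142 windows. The STAT pattern TTCNNNGAA was found in the windows of Kif26b and Dbp, against 7.02% of all windows, and the response element pattern in those of Edn1 and Saa3, against 2.98%. These matches describe the letters only, and no binding was measured.

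Cebpd itself (chr16:15887286-15891031, ENSMUSG00000071637.5) was read at 53.5 and 49.1 CPM in control and 45.9 and 45.6 CPM in sgRNA1 libraries after IFN-gamma. The sgRNA1 libraries lay below both control libraries, but the difference was -0.17 ± 0.084 and did not pass the test over 6 groups (adjusted p = 0.0917). It passed when the libraries compared were fitted alone (-0.16, adjusted p = 0.0316) or with the 6 IFN-gamma libraries (-0.15, adjusted p = 0.0396), and without the first control library the difference was -0.10 (adjusted p = 0.446). With vehicle the sgRNA1 libraries held more Cebpd RNA than control, 13.6 and 13.4 against 9.09 and 7.13 CPM (0.74 ± 0.12, adjusted p = 5.53e-05). A guide cuts DNA and need not lower the mRNA, so this level is no check of the knockout, and no protein was measured. The sgRNA2 libraries held 30.2 and 29.4 CPM after IFN-gamma, below the sgRNA1 libraries (-0.62 ± 0.087 as sgRNA2 minus sgRNA1, adjusted p = 1.27e-05). Of the relatives and partners of C/EBP delta, 4 of 11 rose and 4 fell. Cebpb, a close paralog, rose from 235 and 229.6 to 301 and 292 CPM (0.35 ± 0.066, adjusted p = 0.00013). Cebpg, a partner without an activation domain, fell (-0.37 ± 0.06), as did Cop1, a ubiquitin ligase that degrades C/EBP proteins with Tribbles adaptors (-0.61 ± 0.061). The adaptor Trib3 rose (0.65 ± 0.079) and Trib2 fell (-0.81 ± 0.10).

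The largest rises in sgRNA1 cells included genes of 7 secreted proteins. Ptx3, a soluble pattern-recognition protein, was at 0.193 and 0 CPM in control and 6 and 5.57 CPM in sgRNA1 libraries, a difference of 5.77 ± 0.52 (adjusted p = 2.98e-08). All 4 control reads of Ptx3 came from the first control library, and without it the fitted value was 9.83, which depends on the prior count. Il6, the cytokine that starts the acute phase response, was at 0.677 and 1.18 CPM in control and 21.4 and 20.1 CPM in sgRNA1 libraries (4.48 ± 0.22, adjusted p = 7.74e-12). Saa3, an acute phase apolipoprotein, was at 1.5 and 1.34 CPM in control and 18.6 and 16.2 CPM in sgRNA1 libraries (3.61 ± 0.23, adjusted p = 1.62e-10). In each of these genes both sgRNA1 libraries lay above both control libraries, which the rule that chose them required. Nts, the precursor of the peptide neurotensin, went from 0.0967 and 0.154 to 5.39 and 5.02 CPM (5.31 ± 0.40), and Edn1, the precursor of the vasoconstrictor endothelin-1, from 0.387 and 0.411 to 5.11 and 5.47 CPM (3.71 ± 0.32). Sema3c, a secreted guidance cue, was at 1.84 and 1.44 CPM in control and 20.5 and 20.2 CPM in sgRNA1 libraries (3.63 ± 0.14), and Fstl1, a secreted follistatin-like glycoprotein, at 0.338 and 0.206 CPM in control and 4.22 and 4.07 CPM in sgRNA1 libraries (3.89 ± 0.48). These 4 genes were below 2 CPM in control and above 4 CPM in sgRNA1 cells.

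The most abundant of the large rises was Cyp1b1, a cytochrome P450 that is a textbook target of the aryl hydrocarbon receptor. It was at 10.6 and 11.6 CPM in control and 166 and 173 CPM in sgRNA1 libraries (3.93 ± 0.078, adjusted p = 2.14e-16). Kbtbd8, a substrate adaptor of a CUL3 ubiquitin ligase, was at 0.193 and 0.411 CPM in control and 4.83 and 6.26 CPM in sgRNA1 libraries (4.18 ± 0.32). Kif26b, a kinesin family member, rose by 3.53 ± 0.39 and Bcl2l15, a BCL2-like protein, by 3.45 ± 0.35. The remaining rise, Gm6361, is annotated as a processed pseudogene, with 0 and 0.514 CPM in control and 9.89 and 13.8 CPM in sgRNA1 libraries, and reads of its parent gene cannot be separated from it with certainty. Its fitted difference was 5.53 ± 1.00, and 10.87 without the second control library, which held all of its control reads.

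The largest falls included genes of receptors, a water channel and other membrane proteins. Sectm1a, of a small family of secreted and transmembrane proteins, was at 9.09 and 9.2 CPM in control and 0.234 and 0.248 CPM in sgRNA1 libraries (-5.21 ± 0.35, adjusted p = 1.83e-09), and its relative Sectm1b at 7.4 and 5.71 CPM in control and 0.562 and 0.745 CPM in sgRNA1 libraries (-3.32 ± 0.41). Asb2, a substrate receptor of a CUL5 ubiquitin ligase, was at 23.2 and 21.3 CPM in control and 0.75 and 0.547 CPM in sgRNA1 libraries (-5.08 ± 0.26, adjusted p = 9.47e-12). Ptprz1, a receptor tyrosine phosphatase, was at 3.72 and 4.68 CPM in control and 0.234 and 0.0497 CPM in sgRNA1 libraries (-4.80 ± 0.60). All sgRNA1 values of these 4 genes were below 1 CPM and all control values above 3 CPM.

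Aqp1, a water channel, was at 25.6 and 25.4 CPM in control and 1.83 and 1.34 CPM in sgRNA1 libraries (-4.0 ± 0.19), and Pigr, which carries polymeric immunoglobulins across epithelia, at 6.24 and 5.55 CPM in control and 0.515 and 0.348 CPM in sgRNA1 libraries (-3.75 ± 0.39). Vsir, which encodes the checkpoint protein VISTA, was at 22.2 and 18.2 CPM in control and 2.06 and 2.29 CPM in sgRNA1 libraries (-3.22 ± 0.17). Enpp2, the enzyme autotaxin that makes lysophosphatidic acid, was at 17.4 and 17.1 CPM in control and 1.59 and 1.54 CPM in sgRNA1 libraries (-3.45 ± 0.19). Groups without overlap were a condition for choosing these 4 genes, which were taken for the size of their falls. Their sgRNA1 levels were more than 8 times lower than control on average. Dbp, a clock-controlled transcription factor, was at 23.3 and 21.5 CPM in control and 1.73 and 0.795 CPM in sgRNA1 libraries (-4.13 ± 0.23, adjusted p = 4.33e-11). Tmprss4, a transmembrane serine protease, fell as well (-3.19 ± 0.23). Gm29216, an unprocessed pseudogene that can share reads with its relatives, was at 12.2 and 17.9 CPM in control and 0.422 and 2.53 CPM in sgRNA1 libraries (-3.37 ± 0.56, and -5.14 without the second sgRNA1 library).

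**Figure D1:**
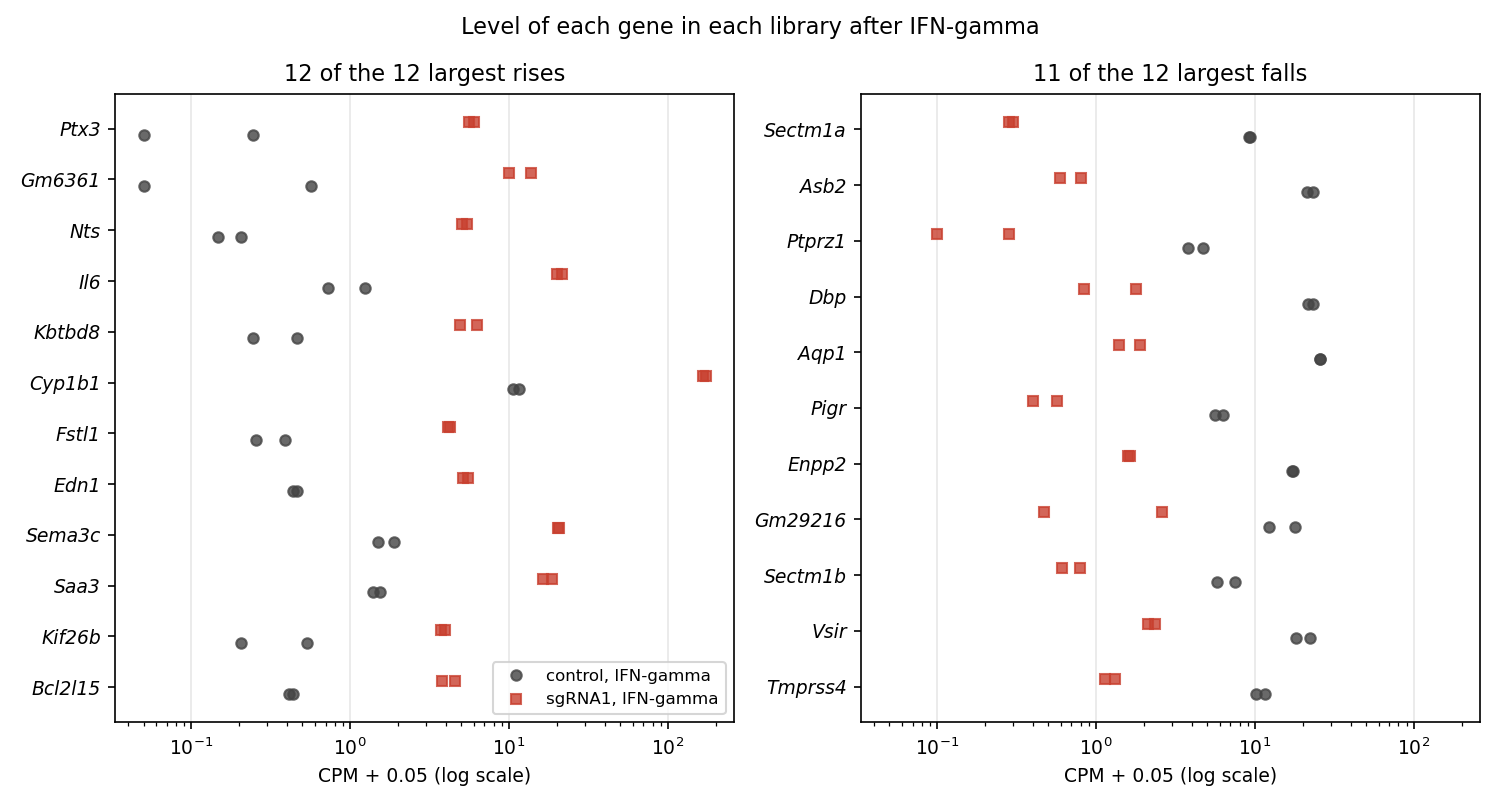
CPM plus an offset of 0.05 on a log axis for the 12 largest rises (left) and 11 of the 12 largest falls (right), with 1 circle per control library and 1 square per sgRNA1 library, all after IFN-gamma. Circles and squares do not overlap in any row, because the rule that chose the genes required it. Cyp1b1 reaches the highest level, 166 and 173 CPM in the sgRNA1 libraries.

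Among abundant mRNAs, the rises included inflammatory mediators and factors of translation and splicing. Ptgs2, the inducible cyclooxygenase, was at 201 and 205 CPM in control and 817 and 838 CPM in sgRNA1 libraries (2.02 ± 0.047, adjusted p = 1.22e-15). The neutrophil chemokine genes Cxcl5 and Cxcl1 went from 387 and 417 to 1189 and 1133 CPM (1.53 ± 0.049) and from 440.2 and 472 to 945 and 907 CPM (1.02 ± 0.05). Odc1, the enzyme that commits ornithine to polyamines, went from 482 and 485 to 1103 and 1071 CPM (1.17 ± 0.041). These genes were well expressed in control, and a rise of at least 2-fold was a condition for naming them here. Eif5, an initiation factor, rose by 1.03 ± 0.042, Srsf3, a splicing factor, by 1.08 ± 0.046, and Tm4sf1, a tetraspan membrane protein, by 1.29 ± 0.05.

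The abundant mRNAs that fell were led in CPM by Pabpc1, the cytoplasmic poly(A)-binding protein, at 6824 and 7029 CPM in control and 2776 and 2914 CPM in sgRNA1 libraries (-1.28 ± 0.039), a gene with processed pseudogenes that can take up some of its reads. The linker histone gene H1f0 was at 2369.5 and 2292 CPM in control and 737 and 676 CPM in sgRNA1 libraries (-1.72 ± 0.048, adjusted p = 1.17e-14). C3, the central complement component, was at 1335 and 1349 CPM in control and 422 and 437 CPM in sgRNA1 libraries (-1.64 ± 0.043), and Lama5, a laminin chain of the basement membrane, at 1542 and 1527 CPM in control and 569 and 602 CPM in sgRNA1 libraries (-1.39 ± 0.042). A fall of at least 2-fold was a condition for naming genes among these abundant mRNAs. Hspa8, the constitutive HSC70 chaperone, was at 2164 and 2154 CPM in control and 1074 and 1020.1 CPM in sgRNA1 libraries (-1.04 ± 0.039).

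Most genes of the IFN-gamma response list and of the interferon receptor and JAK-STAT list were lower in sgRNA1 cells, while type I interferon-stimulated genes were divided. Of 37 tested genes of the IFN-gamma response list, 28 fell and 5 rose, with 11 at least 2-fold lower and none at least 2-fold higher, and the median was -0.63 against -0.0016 over all genes. The list summed to 14954 and 15046 CPM in control and 8589 and 8679 CPM in sgRNA1 libraries. In the signalling layer, 16 of 22 receptor, JAK-STAT and feedback genes fell and 2 rose, with a median of -0.66. Jak2, the kinase on the Ifngr2 receptor chain, was at 175 and 172 CPM in control and 83 and 86 CPM in sgRNA1 libraries (-1.04 ± 0.05, adjusted p = 5.55e-12). Tyk2, a kinase of type I interferon receptors, and Stat5a, a transducer of cytokine and growth hormone signals, fell (-1.37 ± 0.089 and -1.39 ± 0.13). Socs2, a feedback inhibitor, rose by 0.49 ± 0.12 and Ptpn11, the phosphatase SHP2, by 0.29 ± 0.045.

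Of 10 genes of the interferon regulatory factor list, 6 fell and 2 rose. Irf1 was at 777 and 779 CPM in control and 508 and 506 CPM in sgRNA1 libraries (-0.62 ± 0.047), Irf8 at 362 and 359 CPM in control and 209.7 and 203 CPM in sgRNA1 libraries (-0.80 ± 0.042) and Irf2, a repressor that competes with IRF1, at 78.8 and 77.6 CPM in control and 42.5 and 44.8 CPM in sgRNA1 libraries (-0.84 ± 0.075). The larger rise was that of Irf7, an amplifier of type I interferon (0.26 ± 0.054). Batf2, an IFN-gamma-induced partner of IRF1, was at 52.6 and 52.8 CPM in control and 21.8 and 19.8 CPM in sgRNA1 libraries (-1.34 ± 0.10).

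Among the effectors the guanylate-binding proteins, GTPases that attack vacuoles of pathogens, had large falls. Gbp2 was at 1741 and 1731 CPM in control and 734 and 719 CPM in sgRNA1 libraries (-1.26 ± 0.058, adjusted p = 3.24e-12) and Gbp2b at 1688 and 1720.4 CPM in control and 691 and 696 CPM in sgRNA1 libraries (-1.30 ± 0.041). Gbp10 was at 471 and 487 CPM in control and 136 and 142 CPM in sgRNA1 libraries (-1.78 ± 0.057) and Gbp5 at 242 and 239.6 CPM in control and 65.6 and 66.6 CPM in sgRNA1 libraries (-1.86 ± 0.075). In all 4 the sgRNA1 level was at least 2-fold lower, although reads of near-identical Gbp copies may be split between them. Nos2, the inducible nitric oxide synthase, was at 1304 and 1315 CPM in control and 724 and 773 CPM in sgRNA1 libraries (-0.81 ± 0.043). In the other direction, the GTPase gene Tgtp2 rose from 109.6 and 109.5 to 149.9 and 152 CPM (0.46 ± 0.056). Serpina3g and Serpina3f, protease inhibitors of a cluster of similar genes, rose by 0.57 ± 0.052 and 0.81 ± 0.12.

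The 3 IFN-gamma chemokines that draw CXCR3-bearing T cells did not move together. Cxcl9 fell from 387 and 409.9 to 279 and 289 CPM (-0.49 ± 0.043) and Cxcl10 from 198 and 191 to 138 and 149 CPM (-0.44 ± 0.056). Cxcl11 rose from 52.7 and 56.3 to 69.4 and 72.6 CPM (0.38 ± 0.085).

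Antigen presentation genes were mostly lower for class I and mixed for class II. Of 23 class I chain and peptide loading genes, 16 fell, 4 rose and 3 were not called (median -0.36), and only 2 rose without either control library or without the first sgRNA1 library. H2-T23, the non-classical class I molecule Qa-1, was at 636 and 624 CPM in control and 277 and 272 CPM in sgRNA1 libraries (-1.20 ± 0.046, adjusted p = 3.13e-13). Tapbp, which holds class I at the peptide transporter, was at 620.2 and 603 CPM in control and 361 and 359 CPM in sgRNA1 libraries (-0.76 ± 0.046), while its relative Tapbpl rose by 0.54 ± 0.076. Of 8 class II genes, 1 rose and 3 fell. The beta chain gene H2-Ab1 rose from 9.04 and 10.3 to 15.3 and 15.3 CPM (0.66 ± 0.15) and Cd74, the invariant chain, fell from 143 and 135 to 103 and 103 CPM (-0.43 ± 0.053).

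Of 14 checkpoint and NK cell ligand genes, 8 fell and 3 rose. Cd274, which encodes the checkpoint ligand PD-L1, was at 142 and 151 CPM in control and 49.7 and 54.7 CPM in sgRNA1 libraries (-1.49 ± 0.097, adjusted p = 2.43e-10), and Cd47, the signal that restrains phagocytes, at 382 and 391 CPM in control and 238 and 241 CPM in sgRNA1 libraries (-0.69 ± 0.046). Pvr, a ligand shared by activating and inhibitory receptors of NK and T cells, rose by 0.31 ± 0.054. The largest rise of the list, and the only one of at least 2-fold, was that of Raet1d (fitted 2.67, adjusted p = 0.0004). Type I interferon-stimulated genes split, with 11 of 33 higher and 14 lower. Oas3, a sensor of double-stranded RNA, and Ifit2, which binds viral RNA, fell (-1.72 ± 0.049 and -1.54 ± 0.051), and Cmpk2, a nucleotide kinase, and Isg15, a ubiquitin-like modifier, rose by 1.68 ± 0.14 and 0.65 ± 0.067. The median of that list was -0.021 and lay on either side of 0 between scalings.

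Many myeloid-attracting chemokine and cytokine genes were higher. Of 20 chemokine and colony-stimulating factor genes, 14 rose and 5 fell, 8 of them by at least 2-fold upward, with a median of 0.81. Ccl2, the main monocyte chemokine, was at 35.6 and 36 CPM in control and 259.8 and 253 CPM in sgRNA1 libraries (2.84 ± 0.056, adjusted p = 2.14e-16), and its neighbour Ccl7 at 1.93 and 1.9 CPM in control and 18.1 and 17.2 CPM in sgRNA1 libraries (3.20 ± 0.21). Csf2, which encodes GM-CSF, was at 1.55 and 2 CPM in control and 19.8 and 16 CPM in sgRNA1 libraries (3.33 ± 0.18). In these 3 genes the sgRNA1 levels were more than 6 times the control levels. Ccl9 had no read in control and 0.328 and 0.348 CPM in sgRNA1 libraries, at least 2.26-fold higher against a floor of 3 counts per library. The largest fall of the list was Cx3cl1, a membrane-bound chemokine for CX3CR1-bearing cells, at 344 and 346 CPM in control and 96.8 and 109 CPM in sgRNA1 libraries (-1.74 ± 0.051).

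Of 20 genes of the IL-6 family and cytokine receptors, 11 rose and 4 fell. Il11, an IL-6 family cytokine, was at 2.56 and 2.67 CPM in control and 5.72 and 6.36 CPM in sgRNA1 libraries (1.20 ± 0.22), whereas the receptor chain Il6ra fell from 31.1 and 29.9 to 16.1 and 15.1 CPM (-0.97 ± 0.10). Il15, a cytokine for NK and memory T cells, was at 28.6 and 27 CPM in control and 11 and 9.89 CPM in sgRNA1 libraries (-1.41 ± 0.12). Il13ra2, a decoy receptor for IL-13, had 1 read in control and 47 in sgRNA1 libraries, a count ratio of 45.5 (95% counting interval 7.78 to 1834). NF-kB genes as a list moved both ways, 9 higher and 12 lower of 30. Il1a, an alarm cytokine, rose by 0.99 ± 0.048, Cd40, a costimulatory receptor, by 1.55 ± 0.21, and Nfkbia, the inhibitor IkB alpha, fell (-0.53 ± 0.046).

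Acute phase genes that C/EBP factors are known to drive did not move as a block. Of 8 tested, 4 rose, 2 fell and 2 were not called. Ptx3 and Saa3, described above, rose, with Slpi, a secreted protease inhibitor (0.22 ± 0.052). Lcn2, the siderophore-binding lipocalin, was at 162 and 169 CPM in control and 128 and 128 CPM in sgRNA1 libraries (-0.37 ± 0.049), and Cp, the copper carrier ceruloplasmin, at 97.3 and 93.6 CPM in control and 87.8 and 89.8 CPM in sgRNA1 libraries (adjusted p = 0.06, and 0.0264 with size factors of the DESeq2 type). Complement genes were mostly not called (9 of 14), but C4b fell with C3, from 77.2 and 70.9 to 22.4 and 24.8 CPM (-1.65 ± 0.1), and Masp1, a protease of the lectin pathway, rose from 2.56 and 2.98 to 7.96 and 6.36 CPM (1.37 ± 0.17).

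Genes of arginine enzymes moved in both directions. Nos2 fell as given above, Ass1, which recycles citrulline to arginine, rose from 16.6 and 17.8 to 39.5 and 41 CPM (1.22 ± 0.074), and Gch1, which makes the cofactor of nitric oxide synthases, rose from 9.77 and 9.1 to 26.8 and 23 CPM (1.40 ± 0.13). Ddah2, which removes methylated arginine inhibitors, was at 69.9 and 66.9 CPM in control and 32.2 and 30 CPM in sgRNA1 libraries (-1.13 ± 0.057). Gatm, the first enzyme of creatine synthesis, had no read in control and 2.16 and 1.79 CPM in sgRNA1 libraries, at least 13.2-fold higher. Of 16 genes of this list, 10 rose and 3 fell.

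Genes that build ribosomes rose almost without exception, whereas those that encode ribosomal proteins did not. Of 30 ribosome biogenesis genes, 27 rose, 16 of them at least 2-fold, and 1 fell, with a median of 1.07. Nop56, a core protein of box C/D ribonucleoproteins, was at 88.3 and 84.2 CPM in control and 349 and 341 CPM in sgRNA1 libraries (2.0 ± 0.045, adjusted p = 1.05e-15). Heatr1, a factor of ribosomal RNA transcription and processing, was at 28.2 and 27.4 CPM in control and 87.6 and 88.3 CPM in sgRNA1 libraries (1.66 ± 0.058), and Nop2, a ribosomal RNA methyltransferase, at 38.6 and 41.1 CPM in control and 117 and 125 CPM in sgRNA1 libraries (1.61 ± 0.066). Mdn1, the large ATPase that remodels pre-60S particles, was at 30.8 and 31 CPM in control and 73.4 and 79.2 CPM in sgRNA1 libraries (1.30 ± 0.063). All of these sgRNA1 levels were more than 2 times the control levels. Abundant members of the list differed less. Ncl was at 919 and 899.7 CPM in control and 943 and 952 CPM in sgRNA1 libraries and was not called (adjusted p = 0.284), except with upper quartile scaling (0.13, adjusted p = 0.0216). The fall was that of Npm1, at 1726 and 1703 CPM in control and 1565 and 1510.4 CPM in sgRNA1 libraries (-0.16 ± 0.046), a call lost without the second sgRNA1 library (-0.13, adjusted p = 0.0558) and with upper quartile scaling (-0.087, adjusted p = 0.104). Of 40 cytosolic ribosomal protein genes, 0 rose, 25 fell and 15 were not called, with a median of -0.24. With upper quartile scaling 3 of them were called higher. Before scaling, the share of all counts in ribosomal protein genes was 7.66% and 7.67% in control and 7.68% and 7.22% in sgRNA1 libraries, so the size of the fall depends on the scaling. Rpl3 was at 1065 and 1084 CPM in control and 639.8 and 628 CPM in sgRNA1 libraries (-0.76 ± 0.072). Ribosomal protein genes have many processed pseudogenes, so single values are uncertain.

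Of 13 genes of the MYC network, 5 rose and 6 fell, shares not far from those over all genes. MYC is known to drive ribosome biogenesis genes. Myc was at 96.1 and 101 CPM in control and 199 and 208 CPM in sgRNA1 libraries (1.04 ± 0.045, adjusted p = 1.3e-12) and its dimer partner Max at 50.4 and 47 CPM in control and 75.5 and 78.7 CPM in sgRNA1 libraries (0.66 ± 0.054). Of the antagonists that compete for Max, Mxd1 was at 49 and 45.3 CPM in control and 12.6 and 12.8 CPM in sgRNA1 libraries (-1.89 ± 0.12), Mnt at 61.3 and 56.1 CPM in control and 28.5 and 32.4 CPM in sgRNA1 libraries (-0.95 ± 0.073) and Mxi1 at 111 and 110.3 CPM in control and 63.8 and 62.4 CPM in sgRNA1 libraries (-0.81 ± 0.048). Mxd4 also fell (-0.66 ± 0.10). Mir17hg, the precursor of a cluster of growth-promoting miRNAs, rose from 1.35 and 1.18 to 3.19 and 3.18 CPM (1.32 ± 0.21).

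Amino acid supply genes were higher. Of 35 ATF4 targets and tRNA synthetase genes, 26 rose and 5 fell, with a median of 0.47. Slc7a11, the cystine importer, was at 7.3 and 7.45 CPM in control and 27.3 and 27.2 CPM in sgRNA1 libraries (1.88 ± 0.11, adjusted p = 8.17e-11), and Chac1, which degrades glutathione, at 23.4 and 22.2 CPM in control and 80.6 and 76.5 CPM in sgRNA1 libraries (1.79 ± 0.072). Atf5, a relative of ATF4, and Sesn2, a leucine sensor, rose by 1.49 ± 0.11 and 1.35 ± 0.13. The falls included Vars, a valyl-tRNA synthetase gene, at 739 and 736 CPM in control and 417 and 437 CPM in sgRNA1 libraries (-0.79 ± 0.045), and Ddit4, an inhibitor of mTORC1, at 361 and 334 CPM in control and 242 and 225 CPM in sgRNA1 libraries (-0.57 ± 0.053). Mat2a, which makes S-adenosylmethionine, was at 22.5 and 23.1 CPM in control and 81 and 77.5 CPM in sgRNA1 libraries (1.80 ± 0.057), the largest rise of the methionine and one-carbon list, where 11 of 17 rose and 5 fell. Endoplasmic reticulum chaperone genes moved the other way, with 17 of 23 lower and 3 higher. Hsp90b1, the chaperone GRP94, was at 1015 and 1003 CPM in control and 619 and 603 CPM in sgRNA1 libraries (-0.72 ± 0.039).

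Cell-cycle genes were divided by phase. Of 33 DNA replication and S phase genes, 22 rose and 7 fell (median 0.26), while of 30 mitosis genes 4 rose and 24 fell (median -0.39), with 1 rise left without the first sgRNA1 library. The E-type cyclins that open S phase had the largest rises. Ccne2 was at 7.88 and 5.86 CPM in control and 51.5 and 49.9 CPM in sgRNA1 libraries (2.88 ± 0.095, adjusted p = 5.9e-14) and Ccne1 at 4.26 and 4.88 CPM in control and 26.5 and 25.2 CPM in sgRNA1 libraries (2.50 ± 0.13). Tyms, which makes thymidylate, was at 40.2 and 42.7 CPM in control and 121 and 112 CPM in sgRNA1 libraries (1.49 ± 0.056), and Fen1, the flap endonuclease, at 47.1 and 47.1 CPM in control and 113 and 117 CPM in sgRNA1 libraries (1.29 ± 0.055). In these 4 genes every sgRNA1 library held more than 2 times the level of any control library. On the mitotic side, Ccnb2, a B-type cyclin, was at 218 and 212 CPM in control and 129 and 119 CPM in sgRNA1 libraries (-0.80 ± 0.047), and Cdc25b and Cdc25c, phosphatases that activate CDK1, fell (-0.96 ± 0.048 and -1.01 ± 0.081). Cdk1 itself rose from 221 and 219.9 to 277 and 273 CPM (0.32 ± 0.042). Within the replication list, Mcm6, a subunit of the replicative helicase, fell from 237 and 239 to 159 and 161 CPM (-0.57 ± 0.041).

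Mitochondrially encoded mRNAs were lower and nuclear genes of the same organelle were not. Of 13 mitochondrially encoded mRNAs, 11 fell and 0 rose, with a median of -0.91. Their share of all counts was 1.03% and 1.18% in control and 0.544% and 0.54% in sgRNA1 libraries. mt-Co1, a subunit of cytochrome oxidase, was at 6169 and 6604 CPM in control and 1941 and 1986 CPM in sgRNA1 libraries (-1.70 ± 0.049, adjusted p = 1.45e-14). mt-Co2 was at 323 and 442 CPM in control and 169.8 and 129.7 CPM in sgRNA1 libraries (-1.35 ± 0.21), and mt-Atp6 at 403 and 863 CPM in control and 325 and 230.0 CPM in sgRNA1 libraries, where the control libraries differed more than 2-fold from each other (-1.19 ± 0.25, and -0.54 without the second control library, adjusted p = 0.0321). Of 35 nuclear respiratory chain genes, 14 rose and 7 fell (22 and 4 with upper quartile scaling), with rises of 1.01 ± 0.066 for Cycs, which encodes cytochrome c, and 0.68 ± 0.049 for Cyc1. Of 18 genes of mitochondrial transcription and RNA handling, 10 rose and 2 fell. Tfb2m, a mitochondrial transcription factor, was at 10.5 and 9.05 CPM in control and 19 and 18.1 CPM in sgRNA1 libraries (0.92 ± 0.11).

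Immediate early genes and their feedback inhibitors were higher as a list, 17 up and 4 down of 28, with 9 at least 2-fold up and a median of 0.49. Egr1, a zinc-finger factor induced within minutes of growth signals, was at 1.45 and 1.23 CPM in control and 14.5 and 13.9 CPM in sgRNA1 libraries (3.39 ± 0.19, adjusted p = 4.5e-11). Ier2, another immediate early gene, was at 12.4 and 11.9 CPM in control and 40.4 and 37.1 CPM in sgRNA1 libraries (1.67 ± 0.088), Atf3, a stress-induced factor, at 52.5 and 51.6 CPM in control and 143 and 141 CPM in sgRNA1 libraries (1.45 ± 0.05), and Areg, a ligand of the EGF receptor, at 7.11 and 9.25 CPM in control and 29.1 and 32.6 CPM in sgRNA1 libraries (1.92 ± 0.12). The ERK phosphatase gene Dusp4 fell from 161 and 159 to 97.8 and 97.5 CPM (-0.71 ± 0.046). Among targets of YAP and TGF-beta, Ccn2, a matricellular protein, was at 19.7 and 23 CPM in control and 147 and 149 CPM in sgRNA1 libraries (2.80 ± 0.06, adjusted p = 4.66e-16), while Tgfb3 fell from 58 and 51.6 to 24.9 and 24.3 CPM (-1.16 ± 0.082). Of that list 10 of 24 rose and 12 fell.

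Death and survival genes moved in both directions. Of 17 p53 targets, 10 rose and 5 fell. Aen, an apoptosis-enhancing nuclease, was at 7.59 and 7.4 CPM in control and 36.6 and 34.3 CPM in sgRNA1 libraries (2.24 ± 0.09), and Plk2, a polo-like kinase, at 43.3 and 45 CPM in control and 138 and 144 CPM in sgRNA1 libraries (1.67 ± 0.055). The proapoptotic targets Bbc3 (PUMA) and Trp53inp1 fell, from 13.3 and 12.1 to 6.09 and 6.26 CPM (-1.04 ± 0.14) and from 24.1 and 27 to 8.99 and 9.04 CPM (-1.50 ± 0.12). In the BCL2 family 4 of 14 rose and 7 fell. Bmf and Bcl2l11 (BIM), both BH3-only killers, fell (-1.48 ± 0.14 and -0.88 ± 0.057), as did the survival gene Bcl2 (-0.92 ± 0.077), and the pore former Bax rose by 0.61 ± 0.071. Of 20 death receptor, caspase and pyroptosis genes, 13 fell and 5 rose. Tnfrsf1a, the main TNF receptor, was at 162 and 157 CPM in control and 79.7 and 78.8 CPM in sgRNA1 libraries (-1.01 ± 0.046), and Fadd, the adaptor of death receptors, at 7.16 and 8.53 CPM in control and 19.7 and 17.1 CPM in sgRNA1 libraries (1.23 ± 0.14).

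Sterol and fatty acid genes were mostly lower. Of 32 cholesterol and fatty acid synthesis genes, 18 fell and 8 rose, with Scd1, the stearoyl-CoA desaturase, at 94.9 and 102 CPM in control and 46.1 and 49.1 CPM in sgRNA1 libraries (-1.05 ± 0.062) and Srebf2, the master factor of sterol synthesis, at 367 and 364 CPM in control and 189 and 204 CPM in sgRNA1 libraries (-0.90 ± 0.049). The enzyme genes Hsd17b7, Idi1, Lss and Cyp51 rose, by 1.18 ± 0.10, 0.62 ± 0.055, 0.54 ± 0.057 and 0.51 ± 0.045. Of 33 glycolysis and hypoxia-inducible genes, 11 rose and 15 fell. Ldha, lactate dehydrogenase A, went from 1250.1 and 1219 to 2350.2 and 2259 CPM (0.90 ± 0.04), whereas Hk2, hexokinase 2, went from 391 and 376 to 171 and 183 CPM (-1.12 ± 0.054) and Car9, a hypoxia-induced carbonic anhydrase, from 127 and 128 to 45.6 and 46.5 CPM (-1.47 ± 0.051). Mt2, a metallothionein, was at 52.5 and 56.1 CPM in control and 168 and 171 CPM in sgRNA1 libraries (1.64 ± 0.073), the largest rise of the metal list (9 of 15 up, 3 down), and Hmox1, heme oxygenase 1, was at 20.6 and 22.6 CPM in control and 61.2 and 58 CPM in sgRNA1 libraries (1.47 ± 0.067).

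Genes of epithelial and mesenchymal identity were mostly lower, while claudin genes were higher. Of 26 epithelial and mesenchymal identity genes, 17 fell and 7 rose. Krt18, a simple epithelial keratin, was at 1190.4 and 1189 CPM in control and 595 and 620.3 CPM in sgRNA1 libraries (-0.97 ± 0.045), and Epcam, an epithelial adhesion molecule, at 381 and 379 CPM in control and 180.1 and 179.9 CPM in sgRNA1 libraries (-1.08 ± 0.042). The tight junction genes Cldn3, Cldn4 and Cldn7 rose by 1.52 ± 0.066, 0.81 ± 0.054 and 0.73 ± 0.058. In the matrix list 9 of 28 rose and 14 fell, and its median changed sign between alternatives. Spp1, osteopontin, went from 894 and 918 to 414 and 405 CPM (-1.15 ± 0.039), and Mmp10, a stromelysin, from 8.08 and 7.81 to 24.5 and 21 CPM (1.52 ± 0.12). Serpinb2, an inhibitor of plasminogen activators, had 2 reads in control and 121 in sgRNA1 libraries, a count ratio of 58.5 (95% counting interval 15.9 to 489). Of 23 lysosome and autophagy genes, 18 fell and 1 rose, with Ulk1, the kinase that starts autophagy, at 71.1 and 80.5 CPM in control and 29.8 and 32.3 CPM in sgRNA1 libraries (-1.29 ± 0.066).

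**Figure D2:**
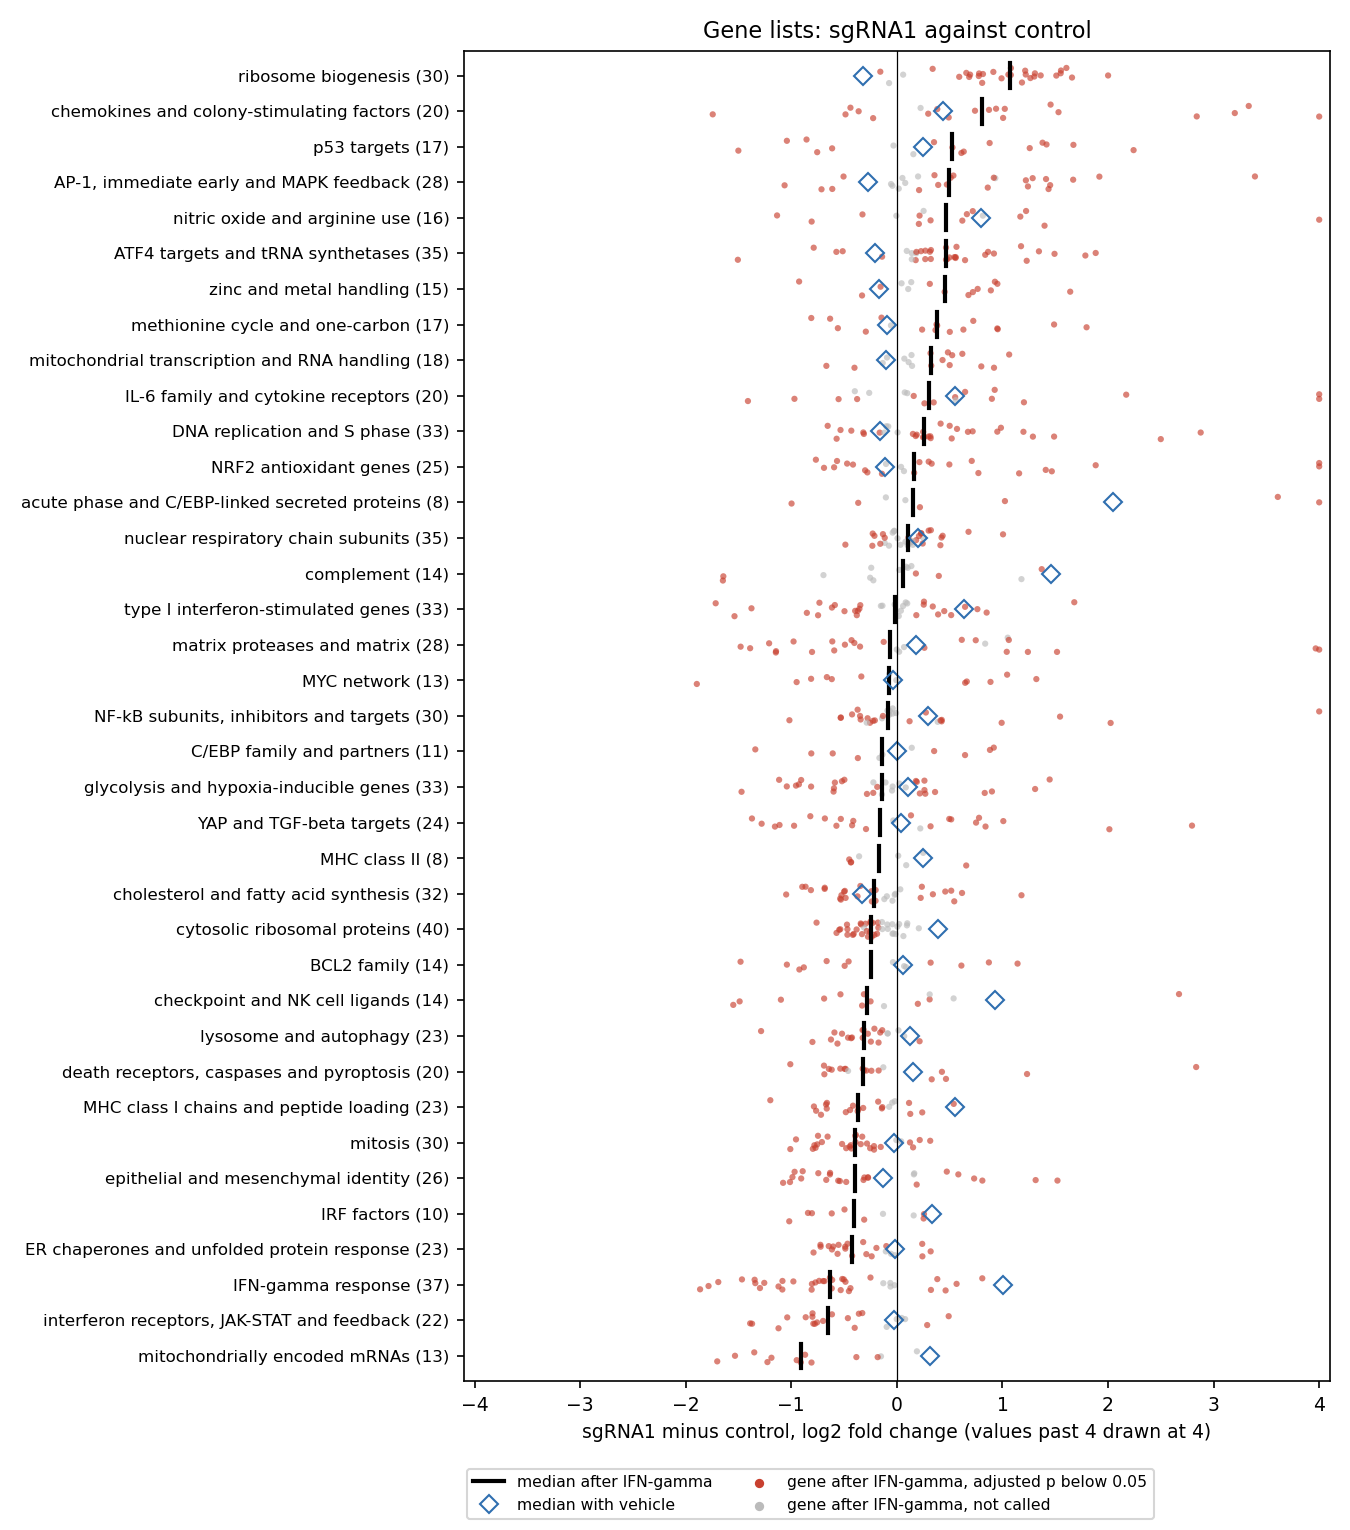
Log2 fold change of sgRNA1 over control for the tested genes of 37 gene lists (number tested in brackets), 1 dot per gene after IFN-gamma, black bars for the list medians after IFN-gamma and open diamonds for the medians with vehicle. Ribosome biogenesis has the highest median after IFN-gamma (1.07) and mitochondrially encoded mRNAs the lowest (-0.91), and for both lists the vehicle median has the other sign.

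The same guide was compared with the control guide in vehicle libraries, which supply none of the IFN-gamma levels or fold changes but share the fit, and so its estimate of the spread, with them. There 7141 genes were called (52.5%), 3487 higher (25.6%) and 3654 lower (26.9%). The split between higher and lower depended on the scaling, since 48.8% of calls were higher with the main scaling and 62.8% with upper quartile scaling, which moved the median of all genes from 0.029 to 0.13. In both conditions 5340 genes were called, 60.5% of the IFN-gamma calls and 74.8% of the vehicle calls. Of these, 1453 were higher in both and 1989 lower in both, while 931 were higher after IFN-gamma and lower with vehicle and 967 the reverse. Across the 13601 genes the correlation of the differences was 0.25, a description over genes that are not independent. The difference of differences (the interaction) was called for 7492 genes (55.1%), 3658 upward (26.9%) and 3834 downward (28.2%). Of the 1963 genes that differed at least 2-fold after IFN-gamma, 1438 were called in the interaction (73.3%) and 623 were called with the same sign in vehicle (31.7%). The interaction contains the IFN-gamma difference itself, so choosing genes by a large one raises the share called in it. The same holds for the largest rises and falls below.

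Most of the largest rises were also found with vehicle. Of the 12 largest rises, 9 were also called higher with vehicle and 6 were called in the interaction. Cyp1b1 was at 6.61 and 4.93 CPM in control and 97.3 and 96.2 CPM in sgRNA1 vehicle libraries, a difference of 4.07 ± 0.091, and its interaction was -0.13 ± 0.14 (adjusted p = 0.447). Ccl2 went from 4.03 and 3.93 CPM in control to 29.8 and 28.5 CPM in sgRNA1 vehicle libraries, with an interaction of -0.034 ± 0.12 (adjusted p = 0.83). Il6 had 2 reads in control and 87 in sgRNA1 vehicle libraries, a count ratio of 45.9 (95% counting interval 12.3 to 385). Ptx3 had none in control vehicle libraries and 21 in sgRNA1, at least 3.69-fold higher. Of the 12 largest falls, 5 were also called lower with vehicle and 7 were called in the interaction. Ptprz1 was lower in both conditions (-4.12 ± 0.70 with vehicle). Dbp, Enpp2 and Vsir were not called with vehicle, and their interactions were -4.40 ± 0.40, -3.86 ± 0.30 and -3.45 ± 0.26. Sectm1a had no read in any of the 4 vehicle libraries, so no vehicle value can be set beside its fall.

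**Figure D3:**
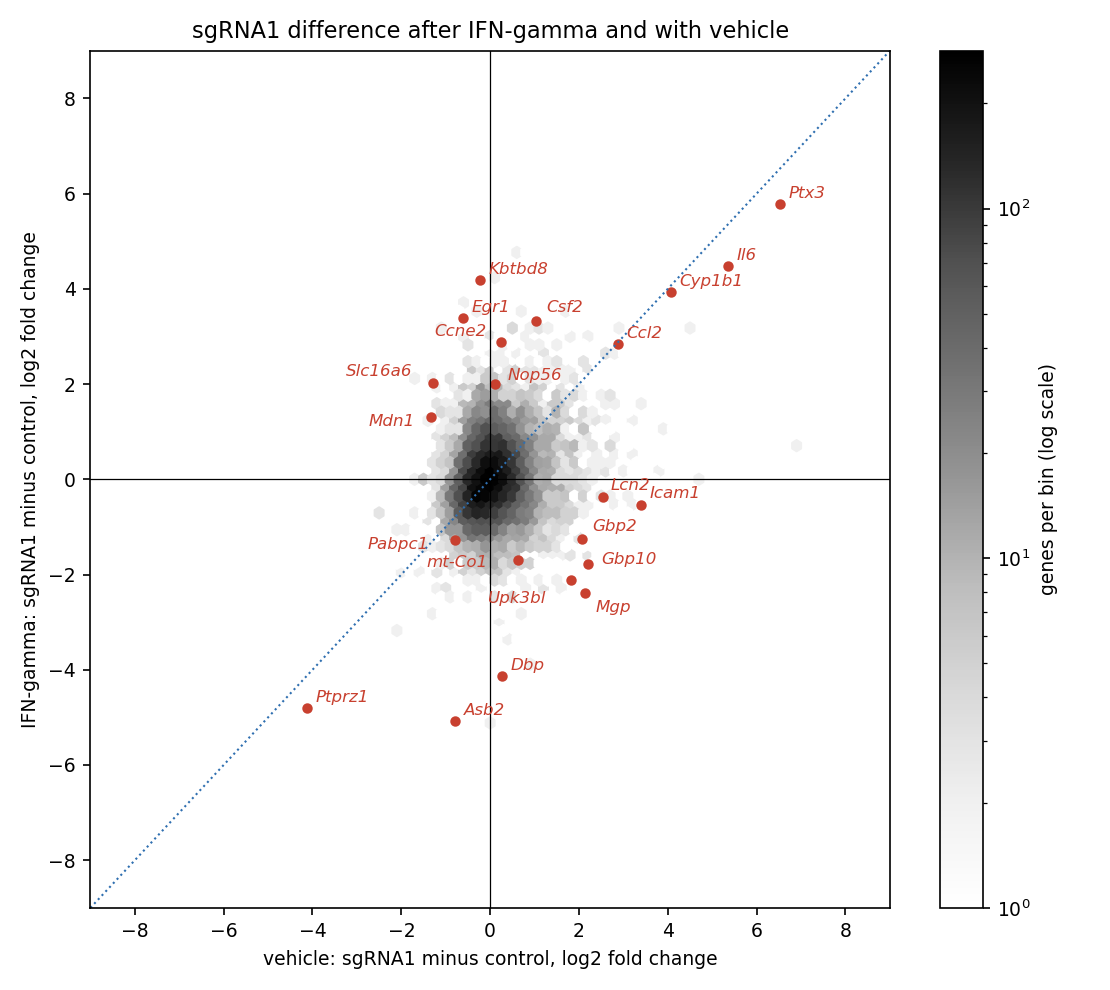
Log2 fold change of sgRNA1 over control after IFN-gamma (vertical) against the same with vehicle (horizontal) for 13601 genes, binned by density, with 22 named genes in red and a dotted line of equal values. Cyp1b1 and Ccl2 lie on the line, Kbtbd8, Egr1 and Dbp near the vertical axis, and Gbp10 and Mdn1 in the quadrants of opposite sign. Fitted vehicle values of genes with few vehicle reads, such as Ptx3, depend on the prior count.

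Whole gene groups took opposite directions in the 2 conditions. Ribosome biogenesis genes, 27 of 30 higher after IFN-gamma, were 1 higher and 25 lower with vehicle, and the interaction was called upward for 29 of 30. Mdn1 fell in sgRNA1 vehicle libraries, from 104 and 114 to 41.9 and 44.5 CPM (-1.33 ± 0.061), and Urb1, a nucleolar factor, from 35.8 and 40.6 to 20.4 and 17 CPM (-1.03 ± 0.10). After IFN-gamma Urb1 was at 7.98 and 7.3 CPM in control and 21.7 and 21.6 CPM in sgRNA1 libraries, so in control cells both genes were lower after IFN-gamma than with vehicle and in sgRNA1 cells both were higher. Cytosolic ribosomal protein genes went the other way, 32 of 40 higher and 0 lower with vehicle, with the interaction called downward for 38. ATF4 and tRNA synthetase genes were 4 higher and 20 lower with vehicle, and the interaction was upward for 27 of 35. Immediate early genes were 4 higher and 16 lower with vehicle.

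Interferon-response genes were higher with vehicle in sgRNA1 cells and lower after IFN-gamma. Of the 37 genes, 21 were higher and 3 lower with vehicle, and the interaction was downward for 27. Gbp2 was at 0.93 and 1.52 CPM in control and 4.28 and 6.22 CPM in sgRNA1 vehicle libraries (2.07 ± 0.21), Icam1, an adhesion ligand of leukocytes, went from 0.207 and 0.21 to 2.16 and 2.35 CPM (3.40 ± 0.30) and Irf1 from 22.6 and 26.6 to 48.8 and 49.7 CPM (1.0 ± 0.064). These vehicle levels are small beside those after IFN-gamma. Class I genes were 18 of 23 higher with vehicle, with the interaction downward for 20. Acute phase genes were 7 of 8 higher with vehicle: Lcn2 went from 9.61 and 8.7 to 53 and 52.9 CPM (2.53 ± 0.075) and Cp from 40 and 37.1 to 141 and 141 CPM (1.87 ± 0.051). Mitochondrially encoded mRNAs, 11 of 13 lower after IFN-gamma, were 6 higher and 1 lower with vehicle. S phase genes were 8 higher and 16 lower with vehicle, and cholesterol and fatty acid genes 27 of 32 lower and 0 higher.

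**Figure D4:**
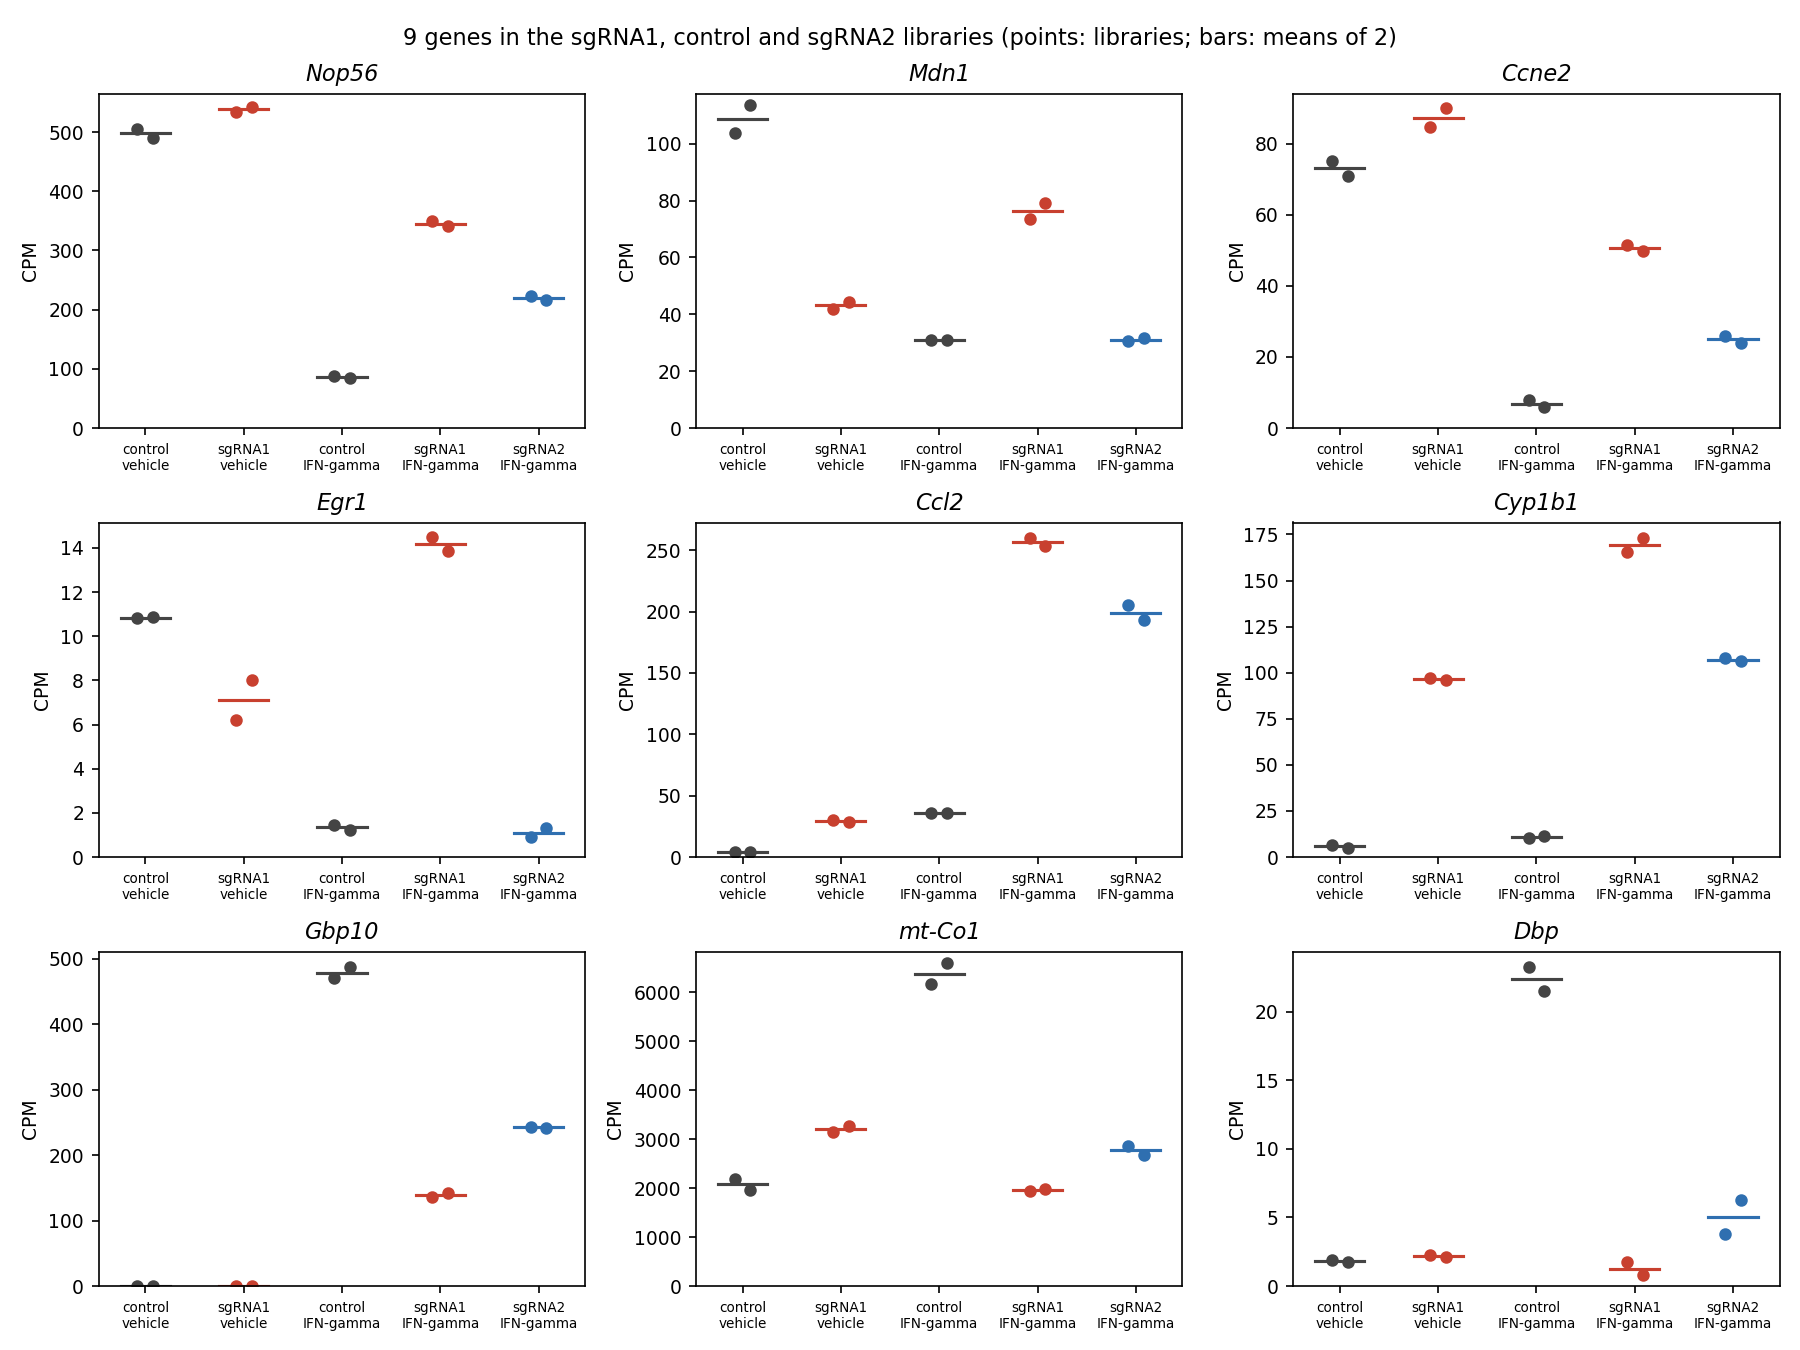
CPM of 9 genes in control and sgRNA1 libraries with vehicle and after IFN-gamma and in sgRNA2 libraries after IFN-gamma, with 1 point per library, bars for means of 2 and axes from 0. Nop56 and Ccne2 are lowest in control after IFN-gamma, Mdn1 is lowest there and with sgRNA2, and Gbp10, mt-Co1 and Dbp are highest in control after IFN-gamma.

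To sort genes by their response to the cytokine without using the libraries compared, the response of sgRNA2 cells (IFN-gamma over vehicle) was used. The 70 genes with a response of 4 or more log2 units had a median sgRNA1 difference of -0.49 after IFN-gamma, with 52.9% called lower and 18.6% called higher. The 160 genes with a response of 2 to 4 had a median of 0.14, with 31.9% lower and 35.6% higher, near the shares over all genes. The 500 genes with a response of 1 to 2 had a median of 0.32, with 45.8% higher and 22.4% lower. The most strongly induced genes thus had the largest share of falls among the 7 bins. Genes that sgRNA2 cells reduced by more than 2 log2 units (312 genes) had a median of -0.21, with a middle range from -1.1 to 0.93.

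**Figure D5:**
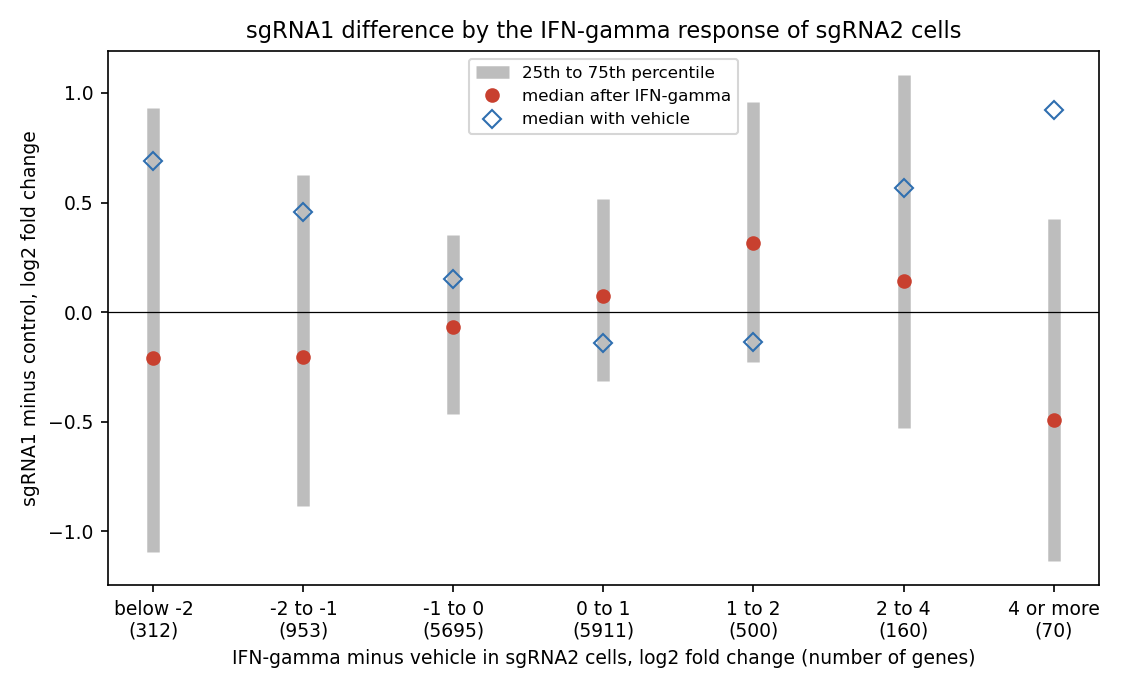
Median (red) and 25th to 75th percentile (grey) of the sgRNA1 over control log2 fold change after IFN-gamma, and its median with vehicle (open diamonds), in 7 bins of the IFN-gamma response of sgRNA2 cells. The bin of 4 or more, with 70 genes, has the lowest median after IFN-gamma (-0.49) and the highest with vehicle (0.92).

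The guides differed after IFN-gamma in many genes. Between sgRNA2 and sgRNA1 libraries 6518 genes differed (47.9%), with 3182 higher (23.4%) and 3336 lower (24.5%) in sgRNA2 cells. Of the 12 largest rises with sgRNA1, 10 differed between the guides, and all 10 were smaller with sgRNA2. Of the 12 largest falls 8 differed, and all 8 were smaller with sgRNA2. Genes chosen as extremes with 1 guide are prone to be less extreme with another. Outside these 24 genes, Egr1 was at 14.5 and 13.9 CPM with sgRNA1 and 0.913 and 1.3 CPM with sgRNA2, the latter at the control level (-3.64 ± 0.20 as sgRNA2 minus sgRNA1, adjusted p = 2.92e-10). Among the 24, Sectm1a had the largest gap, at 0.234 and 0.248 CPM with sgRNA1 and 3.11 and 2.67 CPM with sgRNA2 (3.54 ± 0.39), and Dbp was at 1.73 and 0.795 CPM with sgRNA1 and 3.81 and 6.24 CPM with sgRNA2 (2.0 ± 0.27). Nts and Kif26b did not differ between the guides beyond the test (-0.33 ± 0.23 and -0.30 ± 0.28), nor did Asb2, Ptprz1, Aqp1 and Pigr.

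By list, 24 of 28 immediate early and MAPK feedback genes were lower with sgRNA2 than with sgRNA1 and 1 higher. Ier2 was at 11.5 and 11.6 CPM with sgRNA2, against 40.4 and 37.1 CPM with sgRNA1. The metallothionein gene Mt2 was at 60.5 and 50.5 CPM with sgRNA2, against 168 and 171 CPM with sgRNA1. Of 30 ribosome biogenesis genes, 28 were lower with sgRNA2 than with sgRNA1. The 30 genes summed to 4730 and 4469 CPM with sgRNA2, 5685 and 5679 CPM with sgRNA1 and 4198 and 4149 CPM in control. As a list they thus lay between the sgRNA1 and control levels with sgRNA2, although Mdn1, at 30.5 and 31.6 CPM, was at the control level there. Of 40 ribosomal protein genes, 39 were higher with sgRNA2 (median 0.59). The 40 genes summed to 68218 and 61324 CPM with sgRNA2, 43869 and 41113 CPM with sgRNA1 and 49317 and 49068 CPM in control. Of the 37 IFN-gamma response genes, 16 were higher with sgRNA2 and 5 lower, with a median of 0.088. That list summed to 9795 and 9698 CPM with sgRNA2, 8589 and 8679 CPM with sgRNA1 and 14954 and 15046 CPM in control. Gbp10, at 244 and 242 CPM with sgRNA2, lay between the sgRNA1 and control levels (0.80 ± 0.057). Mitosis genes summed to 5156 and 5057 CPM with sgRNA2, 5198 and 5264 CPM with sgRNA1 and 6830 and 6830 CPM in control. Mitochondrially encoded mRNAs summed to 5713 and 4798 CPM with sgRNA2, 4707 and 4641 CPM with sgRNA1 and 10315 and 11847 CPM in control. The comparison of sgRNA2 with control uses the same control libraries as that of sgRNA1, so the levels are set side by side only.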

How the data were processed

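Per the labels' protocols, Illumina TruSeq chemistry was used to make libraries from total RNA of 4T1 cells. The values are raw counts of reads for each gene, as deposited by the authors. Tools listed in the submitters' processing notes, with no role given, are STAR 2.4.0, DESeq2 1.10 and HTSeq, and the build listed is mm10. Which annotation and strand setting were used is not given in the sources used here, so overlapping genes cannot be separated with certainty. Of 16283 genes, 15941 matched GENCODE vM21 (GRCm38, the same assembly as mm10) by symbol, 244 by synonym and 98 not at all. Promoter windows come from RefSeq (GRCm38.p6).

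Counts were filtered with edgeR's filterByExpr (minimum count 10, minimum total 15), which left 13601 genes with 99.965% of counts. They were scaled by TMM and fitted with edgeR 4.0.16's quasi-likelihood model to all 12 libraries with 1 term per group (6 groups, 6 residual degrees of freedom), with Benjamini-Hochberg adjustment over all tested genes. SE is the fold change divided by the square root of F. DESeq2 1.42.0 was an alternative. The fit was tested on simulated data with few changed genes and a common spread, unlike these data, so that test does not bear on the scaling. The 2 libraries of each group differed by more than sampling noise (chi-square per degree of freedom 2.70 to 6.91), so each counts as 1. Bounds use a floor of 3 counts per library, and 95% intervals are exact binomial. Both cover counting error only. In the 4 libraries compared, TMM factors were 0.963 and 0.965 in control and 1.08 and 1.09 in sgRNA1.

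The members and lists were chosen with earlier results of these data known. Named genes are Cebpd, the 12 largest rises and 12 largest falls among called genes whose libraries did not overlap and whose mean reached 2 CPM, the 8 and 8 called genes of at least 2-fold change with the largest CPM difference, up to 4 rises, 4 falls and the 2 most abundant uncalled genes of each list (all genes of lists with at most 13), and the 6 and 6 largest interactions and 4 and 4 largest reversals of sign. Alternatives were other scalings, no filter, DESeq2, fewer libraries, a replicate block and leaving out each library. Some named genes are not reported here.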

Additional observations from a re-analysis of the deposited data

Results flagged for a closer look

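The sgRNA1 difference was not the same with and without IFN-gamma for 7492 of 13601 genes, by edgeR's test of the interaction itself (sgRNA1 over control after IFN-gamma minus the same with vehicle, log2). The genes below have the largest interactions or reversed signs among those called after IFN-gamma. No explanation was tested.

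Among those with an upward interaction, Kbtbd8 had 4.41 ± 0.38 (adjusted p = 2.58e-08), Egr1 4.01 ± 0.25 (adjusted p = 4.89e-10) and the pseudogene Gm6361 3.77 ± 1.51 (adjusted p = 0.0428). Slc16a6, a monocarboxylate transporter family member, was at 11.1 and 12.6 CPM in control and 5.03 and 4.65 CPM in sgRNA1 vehicle libraries and went from 2.56 and 3.24 to 12 and 11.6 CPM after IFN-gamma (3.32 ± 0.22). Trmt61a, a tRNA methyltransferase subunit, had 2.94 ± 0.15, and Gm38357, a locus of type TEC, 2.96 ± 0.40. The nucleolar factors Mdn1 and Urb1 had 2.63 ± 0.088 and 2.53 ± 0.16, and Prl2c3, a prolactin family member with near-identical copies, 2.26 ± 0.18.

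Downward interactions included the clock output gene Dbp (-4.40 ± 0.40, adjusted p = 4.47e-08) and Mgp, matrix Gla protein, which went from 1.29 and 0.734 CPM in control to 4.33 and 4.59 CPM in sgRNA1 with vehicle and from 2.42 and 3.19 to 0.515 and 0.547 CPM after IFN-gamma (-4.51 ± 0.48). Upk3bl had -3.93 ± 0.42 and Ypel2 -3.34 ± 0.42. For H2-Ab1 (-6.23 ± 1.13), Tgtp2 (-5.68 ± 1.20), Gm12185 (-4.73 ± 1.36) and Apol6 (-4.90 ± 1.51) the control vehicle libraries had no read, so these fitted values depend on the prior count and are no measure of size. H2-Ab1 was at least 4.75-fold and Tgtp2 at least 2.81-fold higher in sgRNA1 vehicle libraries, and Gm12185 at least 1.41-fold. Gbp10 (-3.99 ± 0.74) had 3 control vehicle reads and 14 with sgRNA1, a count ratio of 4.92 (95% counting interval 1.37 to 26.7).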

How the results depend on the processing

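Under DESeq2, edgeR's other scalings, no filter, fits to fewer libraries and leaving out each library, the counts of genes called stayed within 1.5 times the main count for all 4 comparisons, in each direction. For sgRNA1 against control after IFN-gamma the count ranged from 7906 (without the first control library) to 9072 (only the 4 libraries compared), with 8118 by DESeq2, and leaving out 1 library gave 7906 to 8004. Leaving out 1 library gave 6091 to 6218 genes with vehicle, 6846 to 6969 in the interaction and 5074 to 5545 between the guides, each with 1 group left at a single library that is assumed to vary like the others. No printed gene that the naming rule admits changed direction after IFN-gamma. Of the called genes among them, Npm1 alone lost its call with a library left out. The clock genes given below, apart from Dbp, and the leukocyte and fibroblast markers lie outside that rule and were not checked in this way. Of all 312 called genes that the naming rule admits, 10 to 16 lost their call with a library left out. The medians of the type I interferon-stimulated list (-0.068 to 0.049) and the matrix list (-0.084 to 0.0069) changed sign, and no other list median did. With the replicate number as a block the counts were 8804, 7110, 7460 and 6492. Same-numbered control and sgRNA1 libraries gave no sign of pairing. Their deviations from the group means correlated at 0.0078 after IFN-gamma and 0.027 with vehicle over 9534 genes. Over all pairs of groups the correlation ranged from -0.29 to 0.13. The lowest was between the control vehicle and control IFN-gamma libraries, which both enter the interaction. Genes under about 1 CPM rest on about 20 reads or fewer per library, and their fold changes are the least precise.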

Other observations

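Genes of the circadian clock were looked at after Dbp appeared among the largest falls, so the list was chosen after its values were seen and gets no test of its own. Of 19 tested genes, 12 fell and 4 rose after IFN-gamma, and with vehicle 4 fell and 3 rose. The falls included the D-box factors Dbp and Tef and the REV-ERB repressors. Tef was at 45.6 and 46.6 CPM in control and 14.7 and 16.2 CPM in sgRNA1 libraries (-1.58 ± 0.083), Nr1d1 at 64.4 and 68.7 CPM in control and 18.3 and 18.5 CPM in sgRNA1 libraries (-1.86 ± 0.094) and Nr1d2 at 105 and 109 CPM in control and 62.5 and 61.1 CPM in sgRNA1 libraries (-0.79 ± 0.06). The period genes Per1 and Per3 were at 62.1 and 64.7 CPM in control and 27.3 and 28.1 CPM in sgRNA1 libraries (-1.19 ± 0.066) and 27.8 and 26.7 CPM in control and 9.14 and 6.51 CPM in sgRNA1 libraries (-1.80 ± 0.14). Bhlhe41, a repressor of the core loop, was at 51.3 and 48.8 CPM in control and 12.5 and 13.8 CPM in sgRNA1 libraries (-1.93 ± 0.082). In all of these both sgRNA1 libraries lay below both control libraries.

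The rises were Ciart, a repressor of the clock complex, at 2.51 and 1.9 CPM in control and 11.5 and 13.2 CPM in sgRNA1 libraries (2.48 ± 0.19), Clock at 44.8 and 46.4 CPM in control and 67.8 and 73.4 CPM in sgRNA1 libraries (0.63 ± 0.057), Cry1 at 18.6 and 21.7 CPM in control and 32.6 and 29.5 CPM in sgRNA1 libraries (0.63 ± 0.092) and Nfil3, which opposes Dbp at shared sites, at 39.2 and 40.4 CPM in control and 51.1 and 51.7 CPM in sgRNA1 libraries (0.37 ± 0.063). Arntl, the partner of CLOCK, differed by 0.14 ± 0.093 (adjusted p = 0.208). With vehicle, Dbp was at 1.91 and 1.73 CPM in control and 2.27 and 2.11 CPM in sgRNA1 libraries, and Nr1d1 at 13.7 and 13.8 CPM in control and 12.4 and 10.3 CPM in sgRNA1 libraries.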
